A study of Mus musculus with 3 samples.

Results

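Colony-stimulating factors and their receptors were followed cell class by cell class in whole mouse neuroblastomas. The 9 genes were taken by name from the 31053 genes listed in the raw count files, and comprised the 4 ligands Csf1, Il34, Csf2 and Csf3 and the 5 receptor chains Csf1r, Csf2ra, Csf2rb, Csf2rb2 and Csf3r. All 9 had at least 1 unique molecular identifier (UMI, a tag that counts 1 captured RNA molecule) in the kept cells, as did 19725 genes of the files.

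CSF1 and IL34 are secreted or membrane-bound ligands of the same receptor tyrosine kinase, CSF1R, on which most tissue macrophages depend for survival. CSF2 (GM-CSF) binds the alpha chain CSF2RA, which signals together with the common beta chain CSF2RB, a chain also used by the receptors of IL3 and IL5. Mice carry a further beta chain, CSF2RB2, that works with the IL3 receptor only, while CSF3 (G-CSF) acts through CSF3R and drives the production and release of neutrophils.

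Single-cell RNA was profiled in 3 tumors, each from a different TH-MYCN mouse, in which the tyrosine hydroxylase promoter drives MYCN in the sympathetic lineage. All 3 mice were heterozygous for the transgene and their ages were 62, 79 and 63 days for tumors 1, 2 and 3. There was a single group, with no normal tissue or other genotype, so the comparisons set cell classes of the same tumors against each other. The 3 mice were the replicates.

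The kept cells, those retained in the authors' normalized files, numbered 1914, 1221 and 2515 in tumors 1, 2 and 3, with median depths of 4282.5, 1594 and 1816 UMIs a cell. They formed 22 clusters, of which 21 were named from markers into 12 classes with 5526 of the 5650 cells, and 1 cluster of 124 cells stayed unnamed. The macrophage-like class held 608, 97 and 180 cells, the neutrophil-like class 236, 56 and 22, the cancer-associated fibroblast (CAF)-like class 48, 9 and 29, the plasmacytoid dendritic-like class 99, 4 and 23 and the tumor-like class 378, 863 and 2059. The defining markers of the macrophage-like and neutrophil-like classes were all above 0 in those classes in each tumor. RNA of tumor cells was found outside them: 10 tumor markers, at 3254 to 3577 counts per 1000000 UMIs (CPM) in tumor-like cells, summed to 21.7 to 216 CPM in the other classes of tumor 1 but to 708 to 3671 CPM in those of tumors 2 and 3, where plasma cell-like cells (3660 and 3671 CPM) exceeded tumor-like cells (3256 and 3577 CPM). The part of this RNA in the values below was not tested. At a finer clustering (resolution 2) 22 cells were named plasma cell-like, against 144 at the resolution used. Whether the larger class holds tumor cells was not tested. Sums of UMIs per class and tumor were made where a class had at least 10 cells, which gave 29 sums, and levels are CPM of those sums. Levels are compared between cells for 1 gene at a time.

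On GRCm38 the ligand genes lie apart, with Csf1 on chromosome 3 (107741048 to 107760469, minus strand), Il34 on chromosome 8 (110741829 to 110805924, minus strand) and Csf2 and Csf3 on chromosome 11 (54247271 to 54249667, minus strand, and 98701263 to 98703629, plus strand). Of the receptor chains, Csf2ra lies on chromosome 19 (61223957 to 61228429, minus strand) and Csf3r on chromosome 4 (126024550 to 126044440, plus strand). Promoter sequence from RefSeq (GRCm38.p6) was searched for Csf1, Csf2, Csf2ra, Csf2rb2 and Csf3r, and Csf1r was left out of the member windows counted below. The 250 bases before the transcription start are shown for Csf1, the ligand with the most UMIs, and for Csf2rb2, the receptor chain that was highest in plasmacytoid dendritic-like cells, both from the minus strand and written 5′ to 3′. The capitals mark a match to an NF-kB motif in Csf1, on chr3:107760470-107760719, and a match to an ETS or PU.1 core in Csf2rb2, on chr15:78305722-78305971.
Csf1: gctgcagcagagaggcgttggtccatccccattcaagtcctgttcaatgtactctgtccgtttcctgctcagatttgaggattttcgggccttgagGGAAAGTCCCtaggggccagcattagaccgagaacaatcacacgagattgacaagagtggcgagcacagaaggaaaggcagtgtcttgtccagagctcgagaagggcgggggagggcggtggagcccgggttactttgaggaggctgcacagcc
Csf2rb2: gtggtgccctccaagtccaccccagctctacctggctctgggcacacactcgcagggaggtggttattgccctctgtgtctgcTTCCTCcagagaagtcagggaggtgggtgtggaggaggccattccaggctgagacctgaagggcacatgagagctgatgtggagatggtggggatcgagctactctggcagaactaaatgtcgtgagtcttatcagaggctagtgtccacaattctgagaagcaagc
The NF-kB motif was searched on both strands and lay 154 bases before the Csf1 start, with 1.41% of 32851 promoter windows of the same length holding it. The ETS core, GAGGAA on either strand, lay 167 bases before the Csf2rb2 start and was found in 3 of the 5 member windows (Csf2ra, Csf2rb2 and Csf3r), against 23.2% of all windows. Of the same 5 windows, only that of Csf2 held a C/EBP motif, TTGCNNAA, against 9.56% of all windows. No motif searched overlapped another in the windows shown. These matches are letters in a window, with no measurement of binding.

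Csf1 was the most abundant ligand, with 782 UMIs in 232 kept cells, and the neutrophil-like class had its highest mean level. In neutrophil-like cells Csf1 stood at 570 CPM in tumor 1 (403 UMIs), 66.2 CPM in tumor 2 (9 UMIs) and 381 CPM in tumor 3 (17 UMIs), a mean of 339 ± 255 CPM (SD, n = 3). All 3 values lay above the Csf1 level of every macrophage-like sum, at 6.32, 10.2 and 4.49 CPM, but tumor 2 lay below the single mesothelial-like sum, at 88.2 CPM, and below the CAF-like cells of tumor 1, at 159 CPM. Csf1 was higher in neutrophil-like cells than in the mean of the other classes by 7.19 ± 0.74 on the log2 scale, with an adjusted p of 1.85e-07 by edgeR's quasi-likelihood test and a higher level in 3 of 3 tumors. For each log2 difference, the value after ± is its absolute size divided by the square root of the test's F. It is a rough error and not a standard error from the fit. Fitted differences of this kind average log levels over classes, some of which held no UMI, so their size depends on the prior count and a class can pass while its CPM is under the plain mean of the others.

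**Figure D1:**
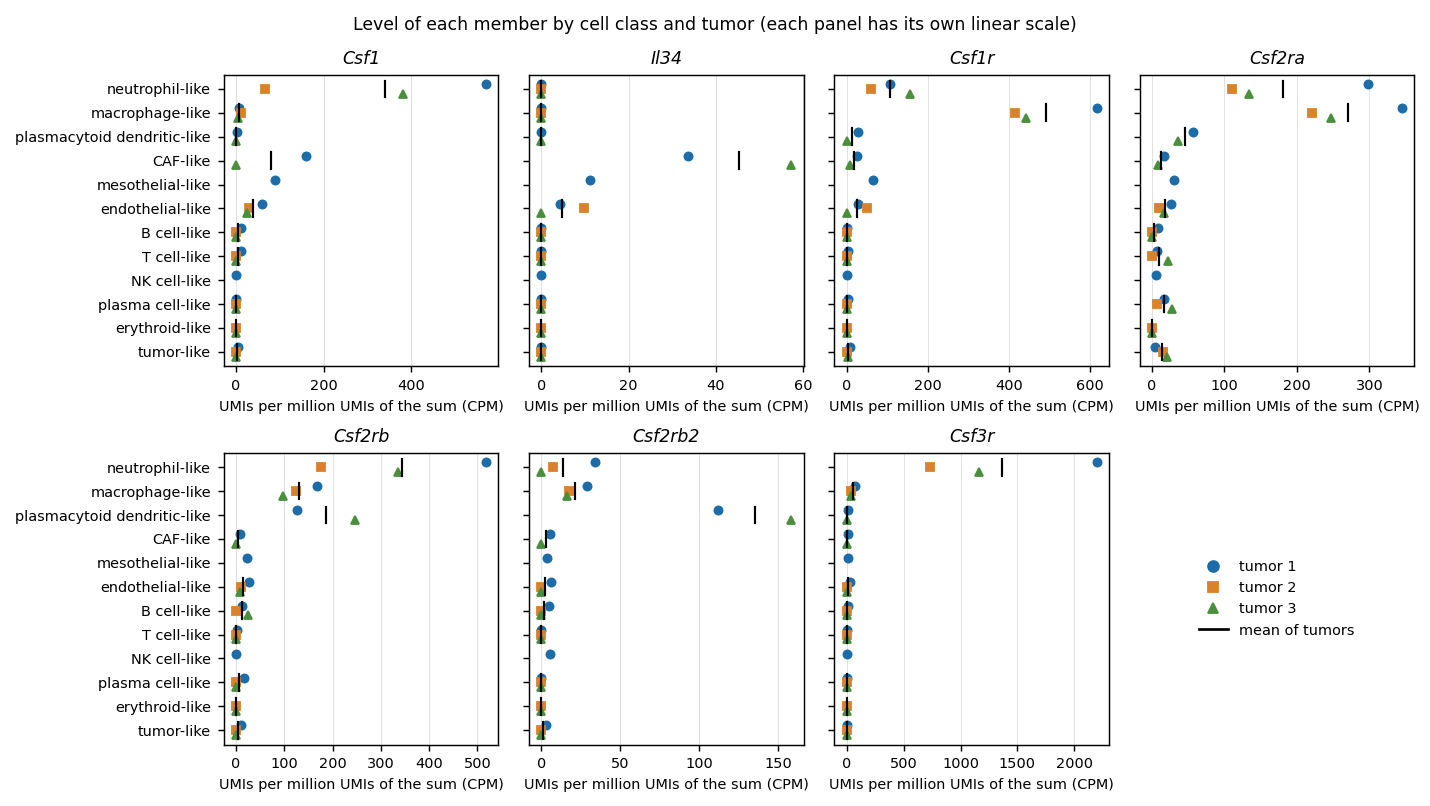
Level of the 7 members with at least 50 UMIs, in CPM, by cell class and tumor, with points for single tumors and a black line for the mean over tumors. Csf3r and Csf1 had their highest mean in neutrophil-like cells (1363 and 339 CPM), Csf1r in macrophage-like cells (491 CPM) and Il34 in CAF-like cells (45.4 CPM).

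Of the 7 members with enough counts to be tested, 6 were higher in neutrophil-like cells than in the mean of the other classes, where 18.3% of 8166 genes were called higher. The median difference of the 7 was 4.56 on the log2 scale, against 0.33 over all genes. The remaining member, Il34, had no UMI in neutrophil-like cells of any tumor. No member was called lower in any class by edgeR or had an unadjusted p under 0.05 in that direction. The genes called lower made up 0.759% in neutrophil-like, 0.0612% in macrophage-like, 0.135% in CAF-like, 0.135% in B cell-like, 0.135% in erythroid-like, 0.171% in endothelial-like, 0.098% in plasmacytoid dendritic-like, 0.049% in plasma cell-like and 0% in T cell-like cells.

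Within the neutrophil-like class, Csf1 was uneven between cells. In tumor 1, 104 of 236 neutrophil-like cells had a Csf1 UMI, and the 28 cells with 5 or more held 260 of the 403 UMIs (64.5%). In tumor 2, 7 of 56 cells had a Csf1 UMI and in tumor 3, 10 of 22, none with 5 or more. After each cell had been thinned to 500 UMIs, 18.5% of neutrophil-like cells had a Csf1 UMI (95% exact binomial interval 14.3 to 23.2%, counting error only), against 38.5% unthinned. In tumor-like cells the share was 0.0606% thinned and 0.152% unthinned, and in T cell-like cells 7 of 226 cells had a UMI unthinned and 1.33% thinned. Median depths were 2453 UMIs in neutrophil-like, 1635.5 in tumor-like and 1891 in T cell-like cells.

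Re-clustering the neutrophil-like cells with the members held out gave an activated-type, a circulating-type and an unnamed subcluster. The activated-type name rested on 4 of 7 listed markers (Ccl3, Ccl4, Il1a, Ptgs2, Cd274, Vegfa and Hilpda). None of the 7 was among its leading genes, which began with Ltc4s, Abi3 and Rgs10. The circulating-type name rested on 6 of 7 listed markers, with Camp, Ltf and Ly6g among the leading genes. Csf1 in the activated-type cells was 1102 CPM in tumor 1 (95% exact Poisson interval 993 to 1221), 175 CPM in tumor 2 (75.5 to 345) and 628 CPM in tumor 3 (343 to 1053). In the circulating-type cells Csf1 was 54.5 CPM in tumor 1 (30.5 to 89.9), 0 in tumor 2 (0 to 61.0) and 85.8 CPM in tumor 3 from 1 UMI (2.17 to 478). The activated-type value was the higher in 3 of 3 tumors, and the counting intervals overlapped in tumor 3 only, where the circulating-type subcluster had 5 cells. Csf3r had no such order, with 2606, 918 and 986 CPM in activated-type and 1592, 413 and 1373 CPM in circulating-type cells. The subclusters were defined from these same cells and no test was run between them.

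**Figure D2:**
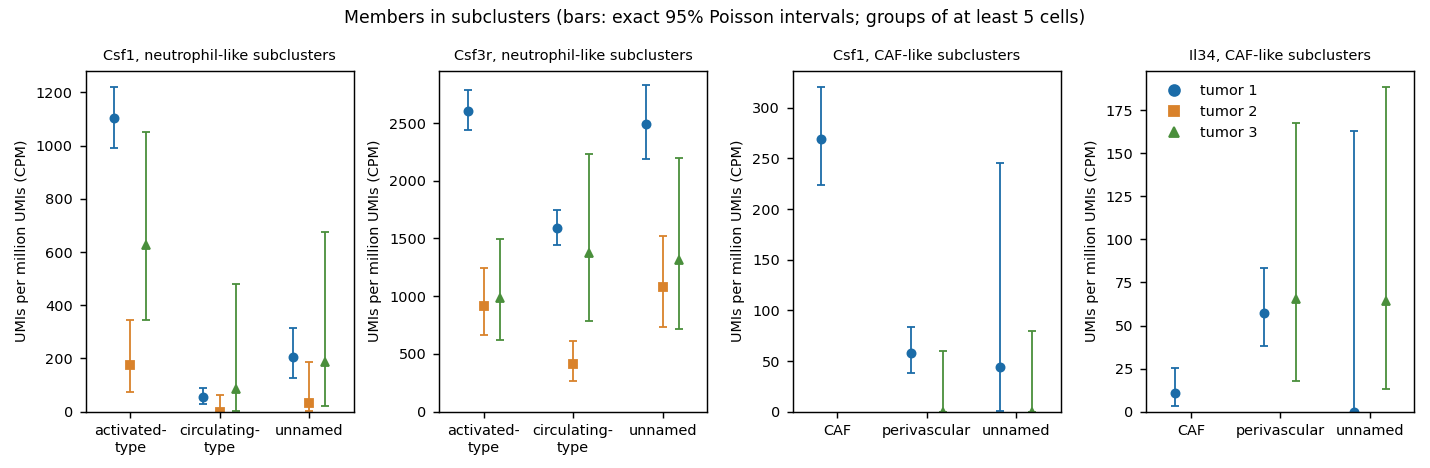
Csf1 and Csf3r in neutrophil-like subclusters and Csf1 and Il34 in CAF-like subclusters, in CPM by tumor, with 95% exact Poisson intervals as bars and groups of fewer than 5 cells left out. Csf1 in activated-type neutrophil-like cells was above that in circulating-type cells in each tumor, at 1102, 175 and 628 CPM against 54.5, 0 and 85.8 CPM.

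Csf1 was also read in CAF-like cells of tumors 1 and 2. Csf1 in CAF-like cells was 159 CPM in tumor 1 (152 UMIs) and 0 in tumor 3, and the 9 CAF-like cells of tumor 2, too few for a sum, had 23 UMIs, 19 of them in 1 cell. Tumor 3 had no Csf1 UMI in 29 CAF-like cells, most of which lay in a subcluster that held few such cells in tumor 1. Csf1 passed the test in CAF-like cells (log2 difference 4.45 ± 0.94, adjusted p 0.00138 by edgeR's quasi-likelihood test), but without tumor 1 the difference was -2.47 with an adjusted p of 1, from the 1 CAF-like sum then left, taken to vary like the other classes. In CAF-like cells 2 of 7 members, Csf1 and Il34, were higher, where 13.2% of all genes were.

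Re-clustering the CAF-like cells gave a fibroblast, a perivascular and an unnamed subcluster. The subcluster with the fibroblast markers as its own list, 20, 3 and 2 cells in tumors 1, 2 and 3, had 124, 21 and 0 UMIs of Csf1 and 5, 0 and 0 of Il34. The perivascular subcluster, with 23, 2 and 8 cells, had 27, 1 and 0 UMIs of Csf1 and 27, 2 and 4 of Il34. The unnamed subcluster, led by Apod, Kcna1 and Tub and with none of the CAF or perivascular markers passing, held 5, 4 and 19 cells, so most CAF-like cells of tumor 3 but few of tumor 1, and had 1, 1 and 0 UMIs of Csf1 and 0, 0 and 3 of Il34. Csf1 in tumor 1 was thus 269 CPM in the fibroblast subcluster (Poisson interval 224 to 321) and 57.4 CPM in the perivascular one (37.9 to 83.6). Among all 86 CAF-like cells, 12 had UMIs of both ligands, 25 of Csf1 only and 9 of Il34 only.

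Csf1 was also read in vessel-lining and serosal cells. Endothelial-like cells had 59.8, 29.5 and 24.6 CPM of Csf1, a mean of 38.0 ± 19.1 CPM (SD, n = 3), each above the macrophage-like level of the same tumor. These levels came from 28, 3 and 3 UMIs in endothelial-like and 38, 4 and 3 in macrophage-like cells. The order in tumors 2 and 3 thus rests on few molecules. Neither Csf1 (adjusted p 0.106) nor Il34 (adjusted p 0.0882) passed edgeR's test in endothelial-like cells, so 0 of 7 members were called there, 2 had an unadjusted p under the threshold, DESeq2 called 0, and 11.9% of all genes were called higher. Tumor-like cells had 3, 1 and 2 UMIs of Csf1 in all their 378, 863 and 2059 cells.

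By share of transcripts, neutrophil-like cells held 46.7 ± 22.9% of the Csf1 UMIs of a tumor (SD, n = 3), from 20.5% in tumor 2 to 63.0% in tumor 3. CAF-like cells held 24.6 ± 26.3% of Csf1 UMIs, from 0% in tumor 3 to 52.3% in tumor 2, the last falling to 16.0% without the 1 cell with 19 UMIs. The share of neutrophil-like cells among kept cells was 12.3, 4.59 and 0.875%, so their share of Csf1 was far above their share of cells in each tumor. A share of UMIs depends on the number of cells kept and their depth as well as on the level in each cell.

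**Figure D3:**
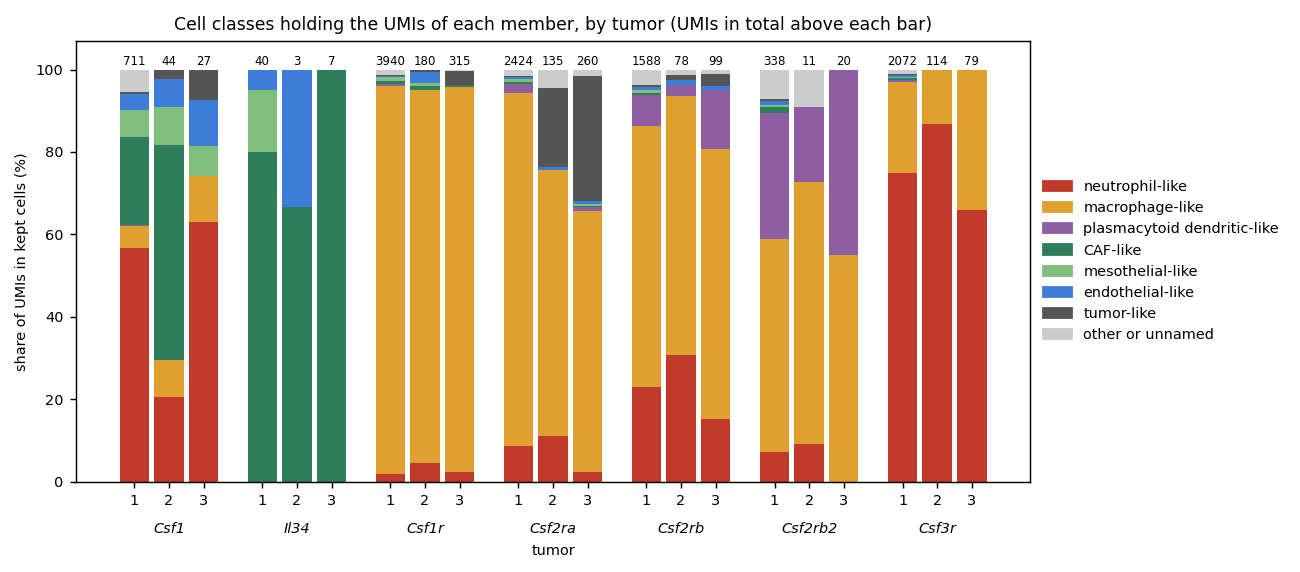
Percent of each member's UMIs by cell class, 1 stacked bar for each tumor, with the total UMIs above the bar. Macrophage-like cells held 92.7% of Csf1r UMIs on average and neutrophil-like cells 75.9% of Csf3r UMIs, while the classes holding Csf1 differed between tumors.

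Il34, the other CSF1R ligand, had 50 UMIs in 25 kept cells and was read mainly in CAF-like cells. Within that class most Il34 UMIs lay in the perivascular subcluster, not in the fibroblast one. CAF-like cells stood at 33.6 CPM of Il34 in tumor 1 (32 UMIs) and 57.3 CPM in tumor 3 (7 UMIs), a mean of 45.4 ± 16.8 CPM (SD, n = 2). Both values were above every other sum, of which mesothelial-like cells had 11.3 CPM and endothelial-like cells 4.27, 9.84 and 0 CPM. Il34 was higher in CAF-like cells by 6.93 ± 0.83 on the log2 scale with an adjusted p of 0.000150 by edgeR's quasi-likelihood test, in 2 of 2 tumors with a sum, and the class held 82.2 ± 16.8% of Il34 UMIs (SD, n = 3). No Il34 UMI was seen in macrophage-like, neutrophil-like, tumor-like, T cell-like, B cell-like, NK cell-like, plasma cell-like or plasmacytoid dendritic-like sums, which at these depths limits the level and does not show absence. Of other receptors of IL34, Sdc1, a cell-surface heparan sulfate proteoglycan, was higher in CAF-like cells by 4.33 on the log2 scale (adjusted p 6.03e-06, edgeR). Sdc1 was also called higher in plasma cell-like cells, by 4.11, so it was not particular to the CAF-like class. Ptprz1 had too few counts to be tested.

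Csf2 and Csf3 were at the limit of detection. Csf2 had 3 UMIs, all in tumor 1, of which 2 were in a cell of 1147 UMIs placed with the tumor-like cells and at the finer clustering with the T cell-like cells, and 1 was in a T cell-like cell. Csf3 had 37 UMIs in 5 cells, of which 33 came from 2 CAF-like cells of tumor 2 with 26 and 7 UMIs. The cell with 26 UMIs of Csf3 also held 19 of that tumor's 44 Csf1 UMIs. The other 3 cells, all of tumor 1, were 2 macrophage-like cells of the Ccr2+ subset, with 2 and 1 UMIs, and a mesothelial-like cell with 1. Neither ligand could be tested, and no neutrophil-like cell had a UMI of either.

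Csf1r had the most UMIs of all members, 4435 in 847 kept cells. The gene lies on chromosome 18 of GRCm38 (61100598 to 61132149, plus strand). In macrophage-like cells Csf1r stood at 616 CPM in tumor 1, 415 CPM in tumor 2 and 442 CPM in tumor 3, a mean of 491 ± 109 CPM (SD, n = 3). These values did not overlap with those of any other class, the next being neutrophil-like cells at 107.5, 58.9 and 157 CPM, and mesothelial-like cells at 65.7 CPM. Csf1r was higher in macrophage-like cells by 6.67 ± 0.55 on the log2 scale (adjusted p 2.20e-08 by edgeR's quasi-likelihood test, 3 of 3 tumors), and this class held 92.7 ± 1.90% of its UMIs (SD, n = 3). Of the 7 tested members 5, all receptor chains, were higher in macrophage-like cells, where 12.6% of all genes were, with a median over the 7 of 4.24 on the log2 scale against 0.36 over all genes.

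Csf1r in neutrophil-like cells passed the same test (log2 difference 4.56 ± 0.65, adjusted p 9.46e-06, edgeR) with a CPM above the mean of the other classes in 2 of 3 tumors. The 12 macrophage markers summed there to 4022, 2082 and 1344 CPM, with 0, 4 and 4 of them at 0, against 22608, 19553 and 16397 CPM in macrophage-like cells. The part of such RNA in the neutrophil-like Csf1r level was not tested. Thinned to 500 UMIs, 22.0% of macrophage-like cells (19.3 to 24.9%, exact binomial) and 5.41% of neutrophil-like cells had a Csf1r UMI, with none of the 246 B cell-like cells (upper limit of 3 cells, 1.22%). Unthinned shares were 79.0, 22.0 and 0.407%, at median depths of 6497, 2453 and 4058 UMIs.

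Csf1 and Csf1r were also counted in the same cells. Of the 885 macrophage-like cells, 683 had Csf1r without Csf1, 16 had both and 3 had Csf1 only, so most of the few macrophage-like cells with Csf1 had Csf1r. Of the 314 neutrophil-like cells, 90 had Csf1 only, 38 Csf1r only and 31 both, 29 of the last in tumor 1. Macrophage-like cells with Csf1r and Csf2ra together made up 79.1, 27.8 and 36.1% of the class in tumors 1, 2 and 3, the highest share being in tumor 1, the deepest.

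The macrophage-like cells were further divided into Apoe+, Ccr2+ and Pecam1+ subsets, all of which carried Csf1r. Another 60, 47 and 77 macrophage-like cells of tumors 1, 2 and 3 stayed in unnamed subclusters, with Csf1r at 324, 102 and 120 CPM. The larger unnamed subcluster, 137 cells at a median depth of 1342 UMIs, had the tumor markers Phox2a, Chgb and Stmn2 among its leading genes. These cells are part of the macrophage-like sums, and their effect on the levels of the class was not tested. With the first clustering at resolution 0.5 and 2, a further unnamed subcluster held 156 and 159 macrophage-like cells. Its leading genes included Clec10a, Ciita and Flt3, the last a conventional dendritic marker used for naming. The Ccr2+ subset then held 126 and 129 cells, against 222 at the resolution used. The Apoe+ subset held 111 and 113, against 168. The part of such cells in the class and subset levels was not tested. The Csf1r level was 447, 550 and 545 CPM in the Apoe+ subset, 590 and 539 CPM in the Ccr2+ subset of tumors 1 and 2, and 849, 603 and 590 CPM in the Pecam1+ subset, so the means were 514 ± 58.0, 564 ± 35.9 and 681 ± 146 CPM (SD). The Apoe+ and Ccr2+ subsets overlapped for Csf1r. The Pecam1+ subset did not overlap with either and was the highest in each tumor with values to compare, although its lowest value (589.951 CPM in tumor 3) was next to the highest Ccr2+ value (589.602 CPM in tumor 1). For Csf2ra and Csf3r the subsets overlapped. Csf2rb was 182, 277 and 146 CPM in the Pecam1+ subset, above the Apoe+ subset of each tumor (123, 91.7 and 108.3 CPM) but overlapping with the Ccr2+ subset (198 and 98.0 CPM). None of the 4 members tested (Csf1r, Csf2ra, Csf2rb and Csf3r) was called in any subset by edgeR's quasi-likelihood test, none had an unadjusted p under 0.05, and DESeq2 called none. The smallest adjusted p was 0.380, for Csf2rb in the Apoe+ subset. Of all 4538 genes, 4.39, 0.286 and 1.3% were called higher and 2.38, 0.264 and 1.06% lower in the Apoe+, Ccr2+ and Pecam1+ subsets. Csf2rb2, too low to be tested, was 35.8, 35.2 and 28.9 CPM in Apoe+, 29.6 and 0 CPM in Ccr2+ and 24.3, 12.1 and 0 CPM in Pecam1+ cells. The Apoe+ subset was the highest in tumors 1 and 2, while in tumor 3 the 9 Ccr2+ cells, too few for a sum, had 2 UMIs (67.4 CPM, Poisson interval 8.17 to 244).

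**Figure D4:**
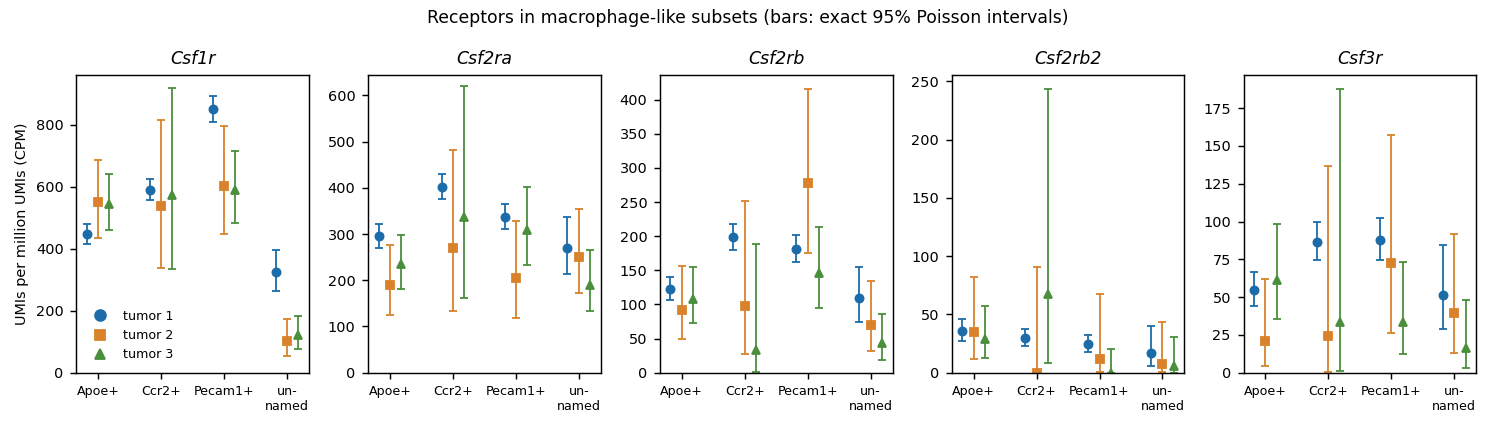
The 5 receptor chains in the macrophage-like subsets and in the macrophage-like subclusters left unnamed, in CPM by tumor, with 95% exact Poisson intervals as bars. Csf1r lay between 447 and 849 CPM in the named subsets, with the Pecam1+ subset above the others, and between 102 and 324 CPM in the unnamed subclusters.

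Csf2ra, the alpha chain that binds CSF2, was the most widely read receptor chain, with 2819 UMIs in 964 cells. It stood at 345, 221 and 247 CPM in macrophage-like cells (mean 271 ± 65.3 CPM, SD, n = 3) and 298, 110 and 134 CPM in neutrophil-like cells (mean 181 ± 102 CPM). These classes overlapped with each other and both lay above plasmacytoid dendritic-like cells, at 56.5 and 35.2 CPM. Csf2ra was higher in macrophage-like cells (log2 difference 4.55 ± 0.48, adjusted p 2.91e-07) and in neutrophil-like cells (4.53 ± 0.50, adjusted p 2.15e-07) by edgeR's quasi-likelihood test, in 3 of 3 tumors each.

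Csf2ra was also read in tumor-like cells, at counts that differed between tumors. Tumor-like cells had 3, 26 and 79 Csf2ra UMIs in tumors 1, 2 and 3 (4.65, 15.6 and 20.2 CPM), 6, 1 and 11 UMIs of Csf1r and 7, 1 and 3 UMIs of Csf2rb, so Csf2ra had the most UMIs of these in tumors 2 and 3 but not in tumor 1. Such UMI counts do not compare levels between genes. In all, 103 of 3300 tumor-like cells (3.12%) had a Csf2ra UMI, against 7 of 226 T cell-like cells and 2.85% of B cell-like cells. After thinning to 500 UMIs the shares were 0.939% in tumor-like, 0.885% in T cell-like and 0% in B cell-like cells. No member was called in tumor-like cells by edgeR's test, in which 0.918% of all genes were higher and 0.343% lower, and none had an unadjusted p under 0.05, while DESeq2 called 3 lower and none higher.

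Csf2rb, the common beta chain, had its highest mean level in neutrophil-like cells, at 518, 177 and 336 CPM (mean 343 ± 171 CPM, SD, n = 3). Plasmacytoid dendritic-like cells followed at 127 and 246 CPM and macrophage-like cells at 167, 125 and 97.3 CPM. The neutrophil-like values overlapped with those of plasmacytoid dendritic-like cells but not with those of macrophage-like cells. By edgeR's quasi-likelihood test Csf2rb was higher in all 3 classes than in the mean of the others, by 6.28 ± 0.61 on the log2 scale in neutrophil-like (adjusted p 4.91e-08), 4.41 ± 0.80 in plasmacytoid dendritic-like (adjusted p 0.000656) and 4.24 ± 0.67 in macrophage-like cells (adjusted p 6.04e-05). Macrophage-like cells, the more numerous and the deeper class, held 63.9 ± 1.51% of Csf2rb UMIs and neutrophil-like cells 23.0 ± 7.81%. The alpha and beta chains of the CSF2 receptor were both read in 58.9, 17.5 and 16.7% of macrophage-like cells and in 34.3, 12.5 and 4.55% of neutrophil-like cells.

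Csf2rb2, the IL3-specific beta chain, was highest in plasmacytoid dendritic-like cells, the type I interferon-producing dendritic cells. These had 112 CPM of Csf2rb2 in tumor 1 (103 UMIs) and 158 CPM in tumor 3 (9 UMIs), a mean of 135 ± 33.0 CPM (SD, n = 2). No other class overlapped, with macrophage-like cells at 29.1, 17.8 and 16.5 CPM and neutrophil-like cells at 34.0, 7.36 and 0 CPM. Csf2rb2 was higher in plasmacytoid dendritic-like cells by 5.81 ± 0.79 on the log2 scale (adjusted p 5.54e-05, edgeR's quasi-likelihood test, 2 of 2 tumors), and 60 of 126 cells (47.6%) had a UMI, or 3.97% after thinning from a median depth of 8691 UMIs. With Csf2rb it made 2 of 7 members higher in this class, where 5.67% of all genes were. Both beta chains were read in 35 of 99 plasmacytoid dendritic-like cells of tumor 1 and 6 of 23 of tumor 3. Csf2rb2 also passed in macrophage-like cells (3.29 ± 0.81, adjusted p 0.00750) and in neutrophil-like cells (3.84 ± 0.89, adjusted p 0.00318), the last not without tumor 1 (adjusted p 0.539, edgeR). Il3ra, the alpha chain of the IL3 receptor, was the only other gene of this receptor family with enough counts to be tested, was called in none of the 3 classes, and was lower in tumor-like cells (log2 difference -3.29, adjusted p 0.0477, edgeR).

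The beta chain genes are neighbors, 20030 bases apart on chromosome 15 of GRCm38, with Csf2rb2 at 78282507 to 78305721 on the minus strand and Csf2rb at 78325752 to 78353847 on the plus strand. The genes share sequence: of the 31-base words in the last 500 bases of a transcript, where reads of a 3′ library fall, 1.28% of those of the longest transcripts Csf2rb-206 and Csf2rb2-201 occur in the other gene, but 20.9% of those of Csf2rb-204 and 9.36% of those of Csf2rb2-202, and 47.1% in the short transcript Csf2rb-202. How the authors' counting treated reads that match both genes is not given in the sources used here.

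Csf3r, the receptor of CSF3, reached the highest level in neutrophil-like cells by a wide margin. Neutrophil-like cells had 2196 CPM of Csf3r in tumor 1 (1552 UMIs), 728 CPM in tumor 2 (99 UMIs) and 1165 CPM in tumor 3 (52 UMIs), a mean of 1363 ± 753 CPM (SD, n = 3). No other class overlapped, macrophage-like cells coming next at 76.0, 38.2 and 40.4 CPM. Csf3r was higher in neutrophil-like cells by 9.93 ± 0.78 on the log2 scale (adjusted p 1.46e-08, edgeR's quasi-likelihood test, 3 of 3 tumors), and 296 of 314 cells (94.3%) had a UMI. After thinning to 500 UMIs the share was 58.9% in neutrophil-like cells (53.3 to 64.4%, exact binomial), 3.28% in macrophage-like cells and 0 of 226 T cell-like cells, which allows up to 1.33%. Macrophage-like cells also passed the test for Csf3r (4.30 ± 0.91, adjusted p 0.00224, edgeR), with a CPM under the plain mean of the other classes in 3 of 3 tumors. The 10 neutrophil markers, among the most abundant RNAs of neutrophil-like cells, summed to 258, 117 and 103 CPM in macrophage-like cells, with 0, 5 and 2 of them at 0, and their part in this Csf3r level was not tested.

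Of the 121 neutrophil-like cells with Csf1, 118 also had Csf3r, 103 of them in tumor 1, 7 in tumor 2 and 8 in tumor 3. Cells with Csf3r but no Csf1 numbered 178 in the class.

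Neutrophil-like and macrophage-like cells were set against each other directly, as the main carriers of CSF receptors. Csf1 (log2 difference 6.14 ± 1.14, adjusted p 0.00243) and Csf3r (5.16 ± 1.09, adjusted p 0.00707) were higher in neutrophil-like cells in 3 of 3 tumors by edgeR's quasi-likelihood test, 2 of 7 members against 3.64% of all genes. Without tumor 2 neither passed (adjusted p 0.0537 for Csf1 and 0.112 for Csf3r), and without tumor 3 Csf3r did not (adjusted p 0.0808). No member was called lower, where 2.36% of all genes were. Csf1r, at a difference of -1.94 ± 0.73, had an adjusted p of 0.134 and was the 1 member lower at an unadjusted p under 0.05, with DESeq2 calling none. With the tumor as a block, which pairs the classes of a mouse, Csf1r was lower (-2.12, adjusted p 0.00229) and Csf2rb higher (1.53, adjusted p 0.0306) in neutrophil-like cells. Csf2ra (-0.01 ± 0.64) and Csf2rb2 (0.50 ± 0.91, adjusted p 0.867, edgeR) did not pass in either fit, which with rough errors of this size does not show equal levels.

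In B cell-like, T cell-like, plasma cell-like and erythroid-like cells none of the 7 members was called by edgeR's test, none had an unadjusted p under 0.05 and DESeq2 called none, with 2.77, 1.86, 2.05 and 0.257% of all genes called higher. The plasma cell-like result is limited by the tumor marker levels of that class given above. NK cell-like and mesothelial-like cells had a sum in tumor 1 only and were not tested on their own. With DESeq2 on the same sums, 7 of the calls above were lost: Csf1 (adjusted p 0.0887) and Il34 (0.835) in CAF-like cells, Csf2rb2 in plasmacytoid dendritic-like (0.0893), neutrophil-like (0.126) and macrophage-like cells (0.516), Csf3r in macrophage-like cells (0.565), and Csf3r between neutrophil-like and macrophage-like cells (0.230).

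Genes downstream of these receptors were followed in lists of known pathway members. CSF2 and CSF3 receptors act through JAK2 and STAT proteins, and of 11 genes of this cascade and its inhibitors 8 could be tested. All 8 were higher in neutrophil-like cells, where 18.3% of all genes were, with a median of 3.56 on the log2 scale against 0.33 over all genes, led by the feedback inhibitor Socs3 (4.35, adjusted p 8.52e-08), the STAT target kinase Pim1 (3.98, adjusted p 7.02e-07), the phosphatase Ptpn6 (3.98, adjusted p 2.07e-05) and the inositol phosphatase Inpp5d (3.84, adjusted p 2.76e-05), each by edgeR. In macrophage-like cells 3 of the 8 were higher, against 12.6% of all genes, Ptpn6 (3.28, adjusted p 0.000412), Socs3 (2.62, adjusted p 0.000554) and Inpp5d (2.19, adjusted p 0.0361). In plasmacytoid dendritic-like cells 2 were higher, Ptpn6 and Inpp5d, against 5.67% of all genes. Elsewhere, Inpp5d was higher in B cell-like cells (3.04, adjusted p 0.00977, edgeR), and Ptpn6 was lower in endothelial-like cells (-4.44, adjusted p 0.0379, edgeR). None of the 8 was called between neutrophil-like and macrophage-like cells, so a difference between the classes was not shown.

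Of 10 kinases and adaptors near these receptors, all tested, 8 were higher in neutrophil-like cells, where 18.3% of all genes were, 6 in macrophage-like cells (12.6%) and 1 in B cell-like cells (2.77%). The Src-family kinase Fgr (log2 differences 6.43 and 5.44, adjusted p 1.10e-07 and 2.92e-06 by edgeR) and the adaptor Tyrobp (5.11 and 4.16, adjusted p 1.38e-06 and 3.14e-05) were higher in both classes. In plasmacytoid dendritic-like cells 3 were higher (5.67%), and none was called between neutrophil-like and macrophage-like cells.

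Myeloid transcription factors were followed in the same classes, and between neutrophil-like and macrophage-like cells 4 of the 7 tested were not called. Of 7 that could be tested, 6 were higher in macrophage-like cells, against 12.6% of all genes, among them Spi1 (PU.1, log2 difference 5.53, adjusted p 4.57e-06) and Cebpa (5.03, adjusted p 4.76e-06), and 3 in neutrophil-like cells, against 18.3%, Spi1 (6.93, adjusted p 9.27e-08), Cebpb (6.58, adjusted p 1.18e-05) and the granulocyte factor Cebpe (7.91, adjusted p 0.000111), all by edgeR. Set directly against macrophage-like cells, neutrophil-like cells, with 3.64% of all genes higher and 2.36% lower, were higher for Cebpe (5.04, adjusted p 0.0437) and lower for Irf8 (-3.70, adjusted p 0.0298) and Klf4 (-3.22, adjusted p 0.0353), which act in monocyte differentiation. Irf8 was higher in plasmacytoid dendritic-like cells (6.34, adjusted p 2.27e-07, edgeR), and 1 factor each was higher in CAF-like, endothelial-like and B cell-like cells.

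Over the 29 sums, the genes whose log2 level ran most closely with each member were found by Pearson's r, as a description across classes that share libraries. Csf3r was closest to Ccr1 (r = 0.98), Clec4e (0.97) and Trem1 (0.97), and Csf1r to Lst1 (0.96), Slc11a1 (0.96) and Clec4a2 (0.95). Csf2ra was closest to Cd300a (0.93), Lst1 (0.90) and Sgpl1 (0.89), Csf2rb to Themis2 (0.94), Nfam1 (0.93) and Fgr (0.93), and Csf2rb2 to I830077J02Rik (0.90), Lair1 (0.88) and Clec12a (0.88). Among ligands, Il34 was closest to Ano1 (0.97), Itga7 (0.97) and Prelp (0.97), while Csf1 had the weakest nearest genes, Steap4 (0.87), Rtp4 (0.86) and Sipa1l2 (0.86).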

How the data were processed

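Whole tumors of 3 TH-MYCN mice were profiled by droplet 3′ single-cell RNA-seq. Per the submitters' processing notes, Cell Ranger 3.1.0 and Seurat 3.1.5 were used on the mm10 build. The authors deposited raw UMI counts per gene and barcode for each tumor, and normalized values on a natural log scale, ln(1 + corrected count), from which doublets, free RNA and barcodes past limits set for each tumor had been taken out. The deposited natural log values defined the kept cells (58.8, 28.2 and 41.7% of barcodes) and served in 1 alternative. Corrected counts were below raw counts in some classes and above them in others, so they were not raw counts with UMIs only taken out. For Csf1r in tumor 1 they were 1793 against 3704 raw in macrophage-like and 73 against 6 raw in tumor-like cells. All results came from the raw counts of kept cells, 12628163, 2740537 and 5215401 UMIs in tumors 1, 2 and 3. Pairs of tumors shared 3, 0 and 1 kept barcodes.

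Clustering used Seurat 5.3.0 in R 4.3.3 (canonical correlation, 2000 variable genes, 30 dimensions, resolution 1), with the members and pathway genes held out. A cluster was named from at least 3 markers, and no further doublet caller was run. Counts were summed per class and tumor (at least 10 cells) and tested with edgeR 4.0.16, quasi-likelihood, TMM, filterByExpr, Benjamini-Hochberg adjustment over all genes, threshold 0.05. Each class was set against the unweighted log-scale mean of the others, and each macrophage subset against the mean of the other subsets. The fit was also run on simulated counts drawn without a tumor effect, which cannot check how it treats classes paired within a mouse. DESeq2 1.42.0, no filter, a tumor block, other resolutions, corrected counts, other minimums of cells, and each tumor left out were alternatives. Named genes were the 9 members, the 3 genes closest to each member with at least 50 UMIs, and up to 4 genes with the smallest adjusted p per list and comparison. Results for 1 gene of these lists are not reported here.

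The members and lists were chosen with earlier results of these data known. Classes of 1 mouse are paired: deviations from class means had a median correlation of 0.190 over 109 pairs of the same tumor and -0.135 over 218 pairs of different tumors. Intervals and limits cover counting error only.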

Additional observations from a re-analysis of the deposited data

Results flagged for a closer look

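Barcodes removed from the authors' normalized files, which no comparison above uses, also held member UMIs. The largest number in a tumor was 294 UMIs for Csf1r, 261 for Csf1, 115 for Csf2rb, 53 for Csf3r, 37 for Il34 and 27 for Csf2rb2, all in tumor 1, and 382 for Csf2ra in tumor 3. For Csf1 the removed and kept barcodes of tumor 1 stood at close levels, 55.6 and 56.3 CPM, and Il34 was at 7.89 CPM in removed and 3.17 CPM in kept barcodes, whereas the receptor chains of tumor 1 were lower in removed barcodes (Csf1r 62.7 against 312 CPM, Csf3r 11.3 against 164 CPM). In tumors 2 and 3, removed barcodes held 217 and 382 UMIs of Csf2ra against 36 and 176 of Csf1r. Median depths of the removed barcodes were 925, 5351.5 and 3703 UMIs in tumors 1, 2 and 3, and 27.9 to 37.7% of their UMIs (medians) were mitochondrial.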

How the results depend on the processing

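Of the tested differences, 21 were recomputed, 249 times in all, and the other tests are not part of this tally. In it, 226 values kept direction and side of the threshold, 11 lost the call, 4 gained one and 8 reversed. DESeq2 called 9 members higher (15 with edgeR) and 3 lower (0) over the classes, the 3 being Csf1, Csf1r and Csf2rb in tumor-like cells, and 1 higher (2) between neutrophil-like and macrophage-like cells. That comparison had 1 lower (0) with no filter on low counts and 1 with tumor as a replicate block, which moved all genes called from 297 to 656 higher and 193 to 487 lower and, beside Csf1r and Csf2rb there, changed no other call. Leaving out a tumor gave 13 to 15 class calls, 0 to 2 higher and 0 to 1 lower between those classes, and moved Csf1 in CAF-like cells from -2.47 to 5.20. Between neutrophil-like and macrophage-like cells Csf2ra reversed to 0.49 (DESeq2), 0.10 (corrected counts), 0.11 (resolution 0.5) and 0.00069 (resolution 2) and ranged from -1.04 to 0.042 with a tumor left out, and Csf2rb2 ranged from -1.63 to 0.67 with a tumor left out and reversed to -0.13 (no TMM, an alternative chosen after seeing the data, as was leaving out a low-depth macrophage-like cluster); none of these passed. Corrected counts moved UMI shares to 89.5% for Csf1r, 50.2% for Csf2rb and 27.0% for Csf2rb2 in macrophage-like and 87.5% for Csf3r in neutrophil-like cells. For Csf1 in tumors 1, 2 and 3, neutrophil-like cells had 489, 7 and 16 corrected UMIs against 403, 9 and 17 raw. CAF-like cells had 45, 4 and 0 corrected Csf1 UMIs against 152, 23 and 0 raw. Csf2 and Csf3 were not listed in the normalized values of any tumor. Shares of cells with a UMI, thinned to 1000 UMIs and unthinned, were 26.7 and 38.5% for Csf1, 79.7 and 94.3% for Csf3r, 41.3 and 79.0% for Csf1r, 25.7 and 70.6% for Csf2ra, 13.9 and 52.8% for Csf2rb and 2.57 and 16.5% for Csf2rb2, and 24.4% unthinned for Il34. No subset call was made under any alternative. The causes were not tested. The depth of tumors 2 and 3 and their small myeloid classes limit each value.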

Other observations

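The unnamed cluster, led by Ccl4, Ccl3 and Ifitm1, held 104 of its 124 cells in tumor 1. Cells with UMIs of at least 2 of the mast cell or basophil markers Cpa3, Mcpt8, Ms4a2, Fcer1a and Cma1 numbered 8, all in tumor 1, of which 7 lay in that cluster and 1 among the B cell-like cells. Together these 8 cells, of 63307 UMIs, had 25 UMIs of Csf2rb (395 CPM, 95% exact Poisson interval 256 to 583), 16 of Csf1 (253 CPM, 144 to 410), 13 of Csf2rb2 (205 CPM), 6 of Csf2ra and none of Csf1r or Csf3r. They were picked for those markers, come from 1 mouse and were not tested.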
